A study of Mus musculus with 5 samples.

Results

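The proteasome genes form a family of 46 genes on this array, of which 33 had enough values to be tested in the lungs of mice with allergic airway inflammation. Members were chosen by name, as genes whose symbol starts with Psm, a letter from a to g and a digit, which 48 symbols and 50 probes on the array met. Of these, Psmc3ip and Psme3ip1 encode proteins named for binding a proteasome component rather than parts of the proteasome, and are given apart. A member was tested when at least 4 of the 5 arrays had a value: 30 genes had all 5 and 3 genes had 4. Another 4 genes had values on 1 to 3 arrays and 9 had none. The whole table held 9727 genes that met the same minimum.

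The arrays compared lung RNA of 5 C3H mice, an inbred strain, that were sensitised to and challenged with ovalbumin (ova mice) with a pool of lung RNA from control C3H mice. Ovalbumin, from egg white, serves as the allergen in this kind of mouse model. Each ova mouse was set against the pool on an array of its own, so there is 1 group of 5 mice and 1 pool, and both RNAs were amplified, per the labels. The age and sex of the mice, how many control mice were pooled, their control treatment and the days of challenge are not stated in the labels. A whole lung holds many cell types, so a change in the number of cells of a type and a change in RNA per cell cannot be told apart.

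Values are log ratios of the ova lung and the pool on the deposited scale, read as log2, with the median of every array set to 0. The labels do not state which RNA is the numerator, so each gene is given by its side of 0, below or above. Of 7 genes that allergic airways are known to induce, 6 passed the test below 0 and 0 above it. Their mean log ratios were -4.79 for Retnla, -4.33 for Clca1, -4.23 for Rnase2a, -3.48 for Arg1, -3.00 for Muc5ac and -0.94 for Ccl11. Il13ra2 (0.01) did not pass. If these 6 genes were induced here, values below 0 mean more RNA in the ova lung. The titles name the ova mouse first, which read as a ratio would put induced genes above 0, so the labels leave the direction open. A gene passed when its adjusted p was under 0.05 in limma's moderated test against 0 over all 9727 genes. The error in that test is the spread between ova mice, and how control mice differ from each other does not enter it. The same pool is on all 5 arrays, so an error in the pool would be shared by them and does not enter it either. The same holds for a dye effect common to all arrays, and the labels do not state the dyes. Between 11778 and 13320 of 17280 probes had a value on an array. The SD of the ratios across probes was 0.20 in mouse 1 and 0.32 to 0.38 in the other mice.

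The proteasome is the large protease that degrades proteins tagged with ubiquitin. Its barrel-shaped core is built of rings of alpha subunits, which form the gates, and rings of beta subunits, of which Psmb5, Psmb6 and Psmb7 carry the cutting sites. A regulatory particle, made of a base with ATPases that unfold the substrate and a lid that removes ubiquitin, caps the core. Under interferon-gamma, and constitutively in many leukocytes, the beta subunits Psmb8, Psmb9 and Psmb10 replace Psmb5, Psmb6 and Psmb7, giving the immunoproteasome, whose peptides are well suited to loading onto MHC class I molecules. Psme1 and Psme2 form the PA28 activator, which is also induced by interferon-gamma.

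Among the 33 proteasome genes tested, 7 passed below 0 and 1 above 0. That is 24.2% of the members, against a background of 27.3% of all genes past the threshold on either side, so the family as a whole was not called more often than genes at large. The median of the members' mean log ratios was -0.03, against 0.00 over all genes, and the median size was 0.07, against 0.11. The 3 inducible catalytic subunits all passed below 0, against 15.0% of all genes on that side. Among the other 30 proteasome genes, 4 passed below 0 (Psma1, Psmb6, Psmc6 and Psmd8) and Psmf1 passed above 0, against 12.3% of all genes above. At an unadjusted p under 0.05 limma called 11 members, the 8 above and Psmd2 and Psmd6 below 0 and Psmb2 above 0; this is 33.3% of the members, against 40.1% of all genes at that threshold. Psmb10 and Psmb6 each have a probe with a mean beyond 1 in size near their own, at the ID distances examined below. Without these members 5 of 31 passed below 0, against the same 15.0% of all genes. Leaving them out was decided after seeing the data. Psmd8 is among the 5 kept, and its neighbour Tfec, at -0.97, lies short of that size.

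**Figure D1:**
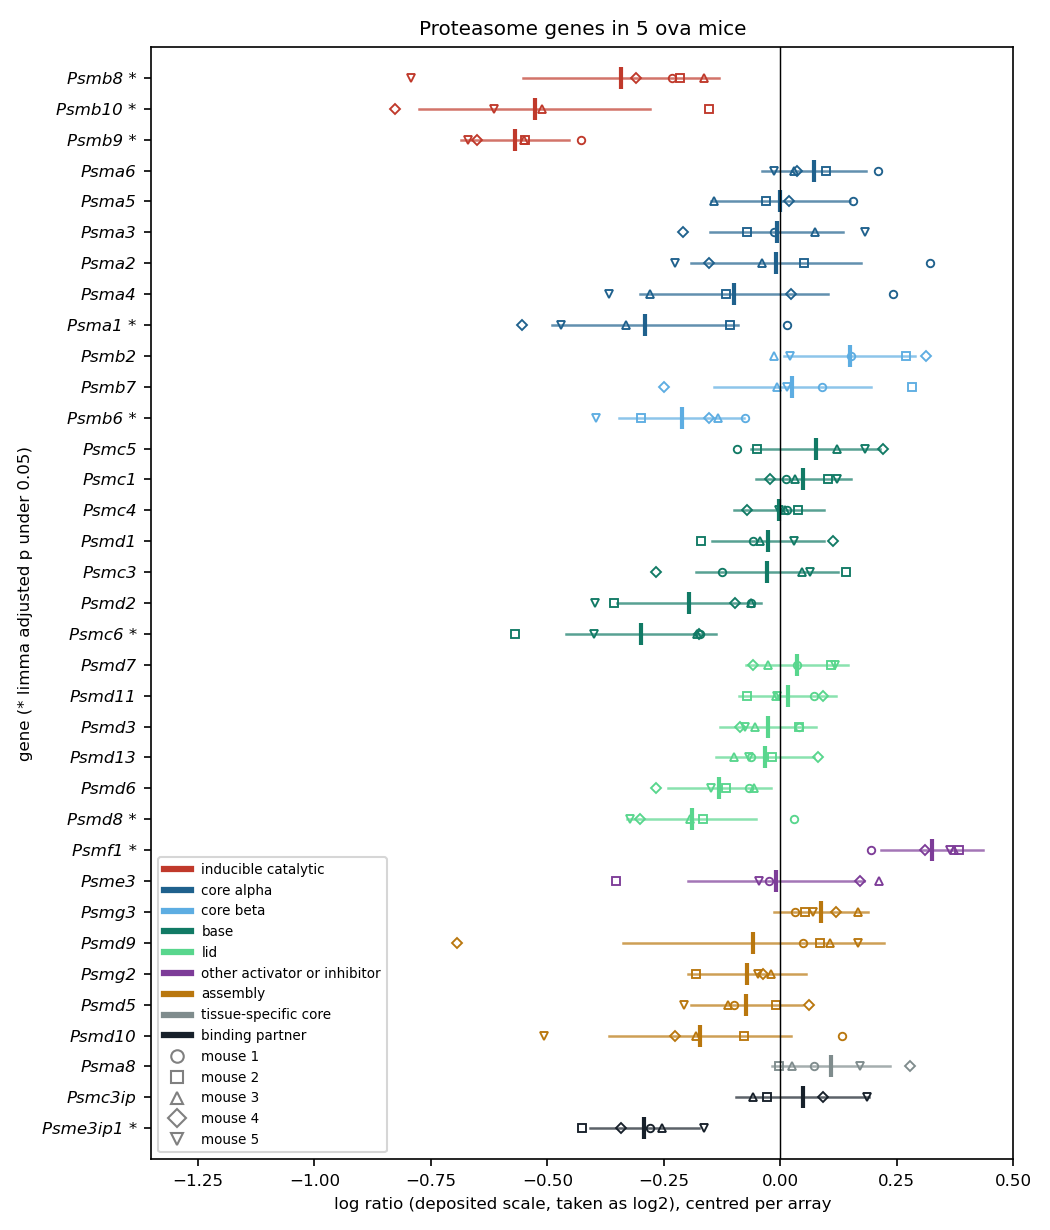
Log ratios of the 33 proteasome genes tested and the 2 binding partners, by class. The x axis is the centred log ratio, taken as log2. Each symbol is 1 mouse, the vertical tick the mean, the horizontal line the 95% interval of limma's fit, and a star marks an adjusted p under 0.05. The inducible subunits lie below 0 in every mouse that measured them, and Psmf1 above 0 in all 5.

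Psmb9, the inducible subunit that takes the place of Psmb6 at a cutting site, had the most negative mean of the family. Its log ratios were -0.43, -0.55, -0.55, -0.65 and -0.67 in mice 1 to 5. All mice lay far from 0 and close to each other. The mean was -0.57 ± 0.10 (SD, n = 5), a difference of 1.48-fold if the log base is 2, with a 95% interval of -0.69 to -0.45 and a limma adjusted p of 0.000656. Of all genes tested, 3.25% had a mean as negative or more so. Its measured neighbours at the ID distances examined below had means of 0.12 or less in size.

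Psmb10, the inducible counterpart of Psmb7, gave -0.15, -0.51, -0.83 and -0.62 in mice 2 to 5 and had no value in mouse 1. Mouse 2 was nearest to 0 and mouse 4 farthest. The mean was -0.53 ± 0.28 (n = 4, limma adjusted p = 0.0116), with a 95% interval of -0.78 to -0.28. The call was lost without mouse 3 (mean -0.53, limma adjusted p = 0.0503) and without mouse 5 (mean -0.50, limma adjusted p = 0.0538). The probe of Psmb10 lies 6 IDs from that of Cxcl9, an interferon-induced chemokine gene, whose log ratios in mice 2 to 5 were -2.90, -4.14, -4.29 and -3.78. For both genes mouse 2 was nearest to 0 and mouse 4 farthest among these 4 mice; the part of this neighbour in the Psmb10 values was not tested.

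Psmb8, the inducible counterpart of Psmb5, gave -0.23, -0.22, -0.16, -0.31 and -0.79 in mice 1 to 5. Every mouse lay below 0, and mouse 5 stood apart from the other 4. The mean was -0.34 ± 0.26 (n = 5), with a 95% interval of -0.55 to -0.13 and a limma adjusted p of 0.0277. Leaving out mouse 5 gave a mean of -0.23 with a limma adjusted p of 0.0286. The call was lost without mouse 2, 3 or 4, with limma adjusted p-values of 0.0512, 0.0501 and 0.0641 and means of -0.37, -0.39 and -0.35. The gene therefore stayed on its side throughout, while its call depended on which mice were kept.

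The upstream sequences of Psmb9 and Psmb8 are shown because these 2 genes, both inducible and both below 0 in all 5 mice, lie close together in the MHC region of the mouse genome, with 10.4 kilobases between the windows. Those of Psmb6, the constitutive subunit that Psmb9 replaces, and of Psmf1, the member past the threshold above 0, are shown for contrast. Each is the 250 bases before the gene's start in RefSeq's annotation of GRCm38.p6, 5′ to 3′ on the gene's own strand. Capitals mark matches, on either strand, to 4 motifs searched: the interferon-stimulated response element core (GAAA, any 2 bases, GAAA), TTCNNNGAA (shared by STAT sites), TGANNNNGC (shared by antioxidant response elements) and CCAAT (the CCAAT box).
Psmb9, chr17:34187331-34187580, minus strand: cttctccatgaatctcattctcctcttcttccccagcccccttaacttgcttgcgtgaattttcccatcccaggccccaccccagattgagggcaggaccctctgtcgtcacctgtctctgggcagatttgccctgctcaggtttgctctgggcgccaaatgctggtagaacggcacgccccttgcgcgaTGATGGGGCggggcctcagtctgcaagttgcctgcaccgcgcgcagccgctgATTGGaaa
Psmb8, chr17:34197945-34198194, plus strand: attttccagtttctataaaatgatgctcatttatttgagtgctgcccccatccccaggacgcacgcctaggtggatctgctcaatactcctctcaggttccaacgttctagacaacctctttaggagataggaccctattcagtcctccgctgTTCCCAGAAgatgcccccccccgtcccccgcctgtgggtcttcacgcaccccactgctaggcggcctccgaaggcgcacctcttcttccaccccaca
Psmb6, chr11:70525107-70525356, plus strand: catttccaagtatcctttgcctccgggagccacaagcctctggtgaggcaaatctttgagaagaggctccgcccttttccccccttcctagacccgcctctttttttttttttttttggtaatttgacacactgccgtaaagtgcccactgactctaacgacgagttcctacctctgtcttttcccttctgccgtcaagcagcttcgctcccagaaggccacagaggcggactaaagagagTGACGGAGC
Psmf1, chr2:151741311-151741560, minus strand: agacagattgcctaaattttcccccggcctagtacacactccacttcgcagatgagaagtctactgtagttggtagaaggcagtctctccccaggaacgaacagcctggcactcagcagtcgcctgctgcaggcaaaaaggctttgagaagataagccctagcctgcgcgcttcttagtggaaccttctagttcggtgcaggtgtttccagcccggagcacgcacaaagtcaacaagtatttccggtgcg

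The Psmb9 window held 1 match to TGANNNNGC, TGATGGGGC, and 1 to CCAAT on the opposite strand. That of Psmb8 held 1 match to TTCNNNGAA, TTCCCAGAA, from 97 to 89 bases before the start. The Psmb6 window held TGACGGAGC directly before the start, and the Psmf1 window held none of the 4. Over the 38 proteasome genes with a window (40 windows), TGANNNNGC was in 37.5% of windows against 35.2% of all 32851 windows of this length, and CCAAT in 32.5% against 33.8%. The rarer motifs were in few windows: TTCNNNGAA in 2 of 40 (5.0%, against 7.02% of all) and the interferon-stimulated response element core in 3 of 40 (7.5%, against 2.98%), and none of the 7 members past the threshold below 0 held the latter. A match is a string of letters and no match concerns only this window. The motifs do not overlap one another in the 4 windows shown.

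The genes of the PA28 activator were hardly measured. Psme1 had values of 0.00 in mouse 1, 0.08 in mouse 3 and -0.04 in mouse 4, which lie on both sides of 0 and are too few for the test. Psme2 had no value on any array. The comparison of the inducible members therefore rests on Psmb8, Psmb9 and Psmb10.

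The constitutive core, 6 alpha and 3 beta genes tested, was centred near 0 with a median of -0.01. It had 2 genes past the threshold below 0 (22.2%, against 15.0% of all genes), none above (against 12.3%), and 7 that did not pass. Psma1, an alpha ring subunit, gave 0.01, -0.11, -0.33, -0.56 and -0.47 in mice 1 to 5. Mouse 1 was close to 0 and the others below it. Its mean was -0.29 ± 0.24 (limma adjusted p = 0.0405), and the call was lost without mouse 2, 3, 4 or 5, with limma adjusted p-values of 0.0526, 0.116, 0.108 and 0.134. Psma5 was the alpha gene nearest to 0, with 0.16, -0.03, -0.14 and 0.02 in mice 1 to 4 and a mean of 0.00 ± 0.12 (n = 4). The remaining alpha genes did not pass: Psma2 had a mean of -0.01 ± 0.21, Psma3 -0.01 ± 0.15, Psma4 -0.10 ± 0.24 and Psma6 0.07 ± 0.09.

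Mouse 1 stood above the other mice in the alpha genes and in the median of this class. It had the highest log ratio in 5 of the 6 alpha genes and in 6 of the 9 core genes. Its core median was 0.15, against -0.03, -0.04, -0.15 and -0.12 in mice 2 to 5. Among the 3 beta genes mouse 1 was highest in 1, and mouse 2 had the highest median (0.27, against 0.09 in mouse 1). The pooled lid and base genes showed no such offset of mouse 1, with medians between -0.07 and -0.01 in all 5 mice. The lid alone had a median of 0.033 in mouse 1, against -0.045, -0.056, -0.073 and -0.071 in mice 2 to 5. Mouse 1 was highest in 2 of the 6 lid genes, as was mouse 4. The base had a median of -0.06 in mouse 1 and -0.07 to 0.03 in the other mice. The assembly genes had a median of 0.04 in mouse 1 and -0.05 to -0.01 in the other mice. Over the 30 non-inducible members, core included, the median was 0.03 in mouse 1 and -0.05 to -0.01 in the others.

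Among the constitutive catalytic subunits, Psmb6 gave -0.08, -0.30, -0.13, -0.15 and -0.40 in mice 1 to 5, below 0 in all. Its mean was -0.21 ± 0.13 (limma adjusted p = 0.0303), with a 95% interval of -0.35 to -0.08. The call was lost without mouse 2, 3, 4 or 5, with limma adjusted p-values of 0.0924, 0.0627, 0.0541 and 0.097. Its probe lies 24 IDs from that of Fcgr1, a macrophage Fc receptor gene with a mean of -1.25; the part of this neighbour was not tested. Psmb7 gave 0.09, 0.28, -0.01, -0.25 and 0.01, scattered around 0, with a mean of 0.03 ± 0.19 and a 95% interval of -0.14 to 0.19. Psmb2, a structural beta subunit, lay mainly above 0 with a mean of 0.15 ± 0.15 and did not pass (limma adjusted p = 0.11). Psmb5, the counterpart of Psmb8, had no value on any array, nor did Psmb1, Psmb3 and Psma7. Psmb4 had a single value, 0.14 in mouse 4.

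The inducible subunits were then set against the constitutive ones within each array. Psmb9 minus Psmb6 was -0.35, -0.25, -0.42, -0.50 and -0.27 in mice 1 to 5, so Psmb9 was the more negative in every mouse. The mean difference was -0.36 ± 0.10 (n = 5; two-sided exact sign-flip permutation p at the smallest value that 5 mice allow, which is above 0.05, and 0.125 adjusted over the 2 pairs). Psmb10 minus Psmb7 was -0.44, -0.50, -0.58 and -0.63 in mice 2 to 5, again on 1 side in all. The mean difference was -0.54 ± 0.08 (n = 4; exact permutation p = 0.125, the smallest that 4 mice allow, and 0.125 adjusted). Neither design can pass 0.05, so these differences stand as values that exceed their spread between mice. Psmb8 could not be paired, as Psmb5 was blank.

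Over the classes, the median of the inducible subunits minus that of the constitutive core was -0.48, -0.18, -0.47, -0.50 and -0.55 in mice 1 to 5, a mean of -0.44 ± 0.14. Against the lid and base the same difference was -0.27, -0.16, -0.47, -0.58 and -0.66, a mean of -0.43 ± 0.21. Both were below 0 in every mouse and smallest in size in mouse 2. Psmb10 had no value in mouse 1, so the inducible median there rests on Psmb8 and Psmb9, and the core median there was 0.15. Each inducible subunit was also ranked among the 29 or 30 non-inducible proteasome genes measured in a mouse. None of these lay lower than Psmb9 in mice 1, 3 and 5, and 1 did in mice 2 and 4. For Psmb8, 0, 4, 5, 2 and 0 of them lay lower in mice 1 to 5, and for Psmb10, 7 lay lower in mouse 2 and 0 in mice 3, 4 and 5.

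**Figure D2:**
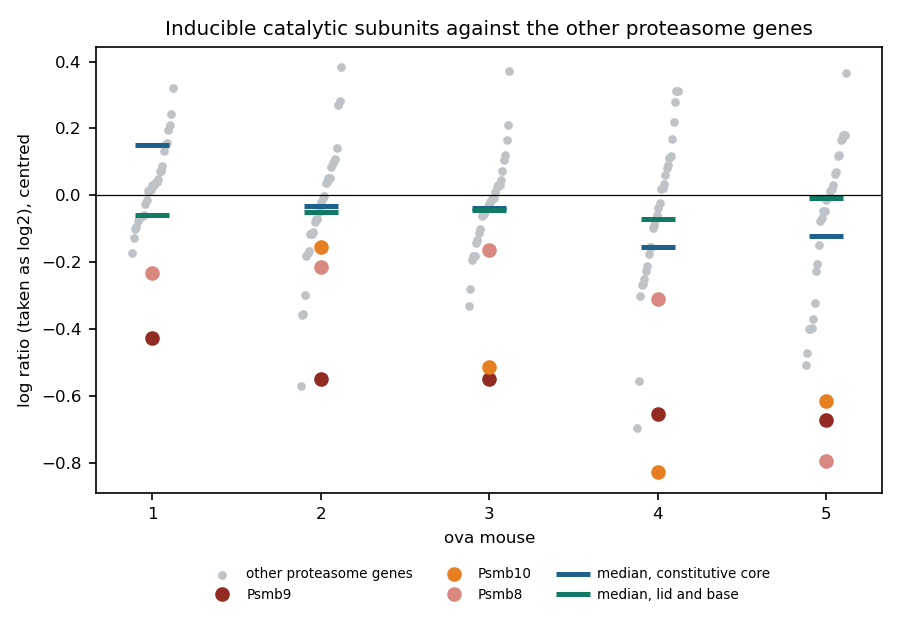
Centred log ratios (y axis, taken as log2) of Psmb8, Psmb9 and Psmb10 in each ova mouse (x axis), with the other proteasome genes tested as grey points and the medians of the constitutive core and of the lid and base as bars. Psmb9 lies between -0.67 and -0.43 in all mice, while the bars lie between -0.15 and 0.15; Psmb10 has no value in mouse 1.

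Of the base genes, 1 of 7 tested passed below 0 (14.3%, against 15.0% of all genes) and none above (against 12.3%), with a median of -0.03. Psmc6, an ATPase subunit, gave -0.17, -0.57, -0.18, -0.17 and -0.40 in mice 1 to 5. All mice lay below 0, with mouse 2 lowest. The mean was -0.30 ± 0.18 (limma adjusted p = 0.017), and the call was lost without mouse 5 (mean -0.27, limma adjusted p = 0.0642). Its strongest measured neighbour by ID had a mean of -0.09. Another ATPase gene, Psmc4, was the steadiest of all members, with 0.01, 0.04, 0.01, -0.07 and 0.00 in mice 1 to 5 and a mean of 0.00 ± 0.04 (95% interval -0.10 to 0.09). The ATPase genes Psmc1 (0.05 ± 0.06), Psmc3 (-0.03 ± 0.17) and Psmc5 (0.08 ± 0.14) and the scaffold gene Psmd1 (-0.03 ± 0.11) did not pass. Psmd2, the other large scaffold subunit, was below 0 in all 5 mice with a mean of -0.20 ± 0.17 and did not pass (limma adjusted p = 0.0624). Psmd4, a ubiquitin receptor gene, had no value.

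Of the lid genes, 1 of 6 tested passed below 0 (16.7%, against 15.0% of all genes) and none above (against 12.3%), with a median of -0.03. Psmd8 gave 0.03, -0.17, -0.19, -0.30 and -0.32 in mice 1 to 5, above 0 in mouse 1 only. Its mean was -0.19 ± 0.14 and its limma adjusted p, 0.0491, lay at the threshold; the call was lost without mouse 2, 3, 4 or 5 (limma adjusted p-values of 0.101, 0.12, 0.124 and 0.154) and in 8 of 13 settings in all. Its strongest neighbour by ID, Tfec, had a mean of -0.97. Psmd11 was the lid gene nearest to 0, and gave 0.07, -0.07, -0.01, 0.09 and -0.01, a mean of 0.02 ± 0.07. It has 2 probes, but 1 of them had values in mice 2 and 3 only. Psmd6 was below 0 in all mice at -0.13 ± 0.08 and did not pass (limma adjusted p = 0.0796). Psmd3 (-0.03 ± 0.06), Psmd7 (0.04 ± 0.08) and Psmd13 (-0.03 ± 0.07) lay on both sides of 0. Psmd14, the deubiquitinase of the lid, had a single value of -0.04 in mouse 3, and Psmd12 had none.

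The member on the opposite side was Psmf1, which encodes PI31, a protein first described as an inhibitor of the proteasome core. It gave 0.20, 0.38, 0.37, 0.31 and 0.36 in mice 1 to 5, above 0 in every mouse and with little spread. The mean was 0.33 ± 0.08 (n = 5, 1.25-fold if the log base is 2), with a 95% interval of 0.22 to 0.43 and a limma adjusted p of 0.00285. Its call held without each mouse in turn, with limma adjusted p-values between 0.00252 and 0.0171. The strongest of its ID neighbours, the sodium channel gene Scnn1a, had a mean of 0.79; the part of this neighbour was not tested. Psme3, the activator PA28-gamma of the nucleus, gave -0.02, -0.35, 0.21, 0.17 and -0.05, on both sides of 0, with a mean of -0.01 ± 0.22. Psme4, another activator gene, had no value.

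None of the 5 assembly genes tested passed on either side with limma, against 27.3% of all genes, and their median was -0.07. None had an unadjusted limma p under 0.05, against 40.1% of all genes. Psmd10, a chaperone of base assembly, gave 0.13, -0.08, -0.18, -0.23 and -0.51 and had the largest mean of the class in size, -0.17 ± 0.23 (limma adjusted p = 0.17). Psmd9, another base chaperone, gave 0.05, 0.09, 0.11, -0.70 and 0.17. Mouse 4 alone lay below 0, and the mean was -0.06 ± 0.36, the widest spread of all members. Its strongest neighbour by ID was a probe of Dhx30, 6 IDs away. As a gene, Dhx30 gave 0.05, 0.09, 0.21, -0.375 and 0.22 in mice 1 to 5, also below 0 in mouse 4 alone. The part of this neighbour in the Psmd9 values was not tested. Psmd5 (-0.07 ± 0.10), Psmg2 (-0.07 ± 0.07, n = 4) and Psmg3 (0.09 ± 0.05, 2 probes) lay close to 0. Psmg1 had values of 0.12, 0.06 and -0.08 in mice 1 to 3 only. Psma8, the testis form of an alpha subunit, gave 0.07, 0.00, 0.02, 0.28 and 0.17 and did not pass (mean 0.11 ± 0.12), and Psmb11, the thymus form of a beta subunit, had no value.

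The 2 genes that share the family's letters without encoding its subunits differed from each other. Psme3ip1, which encodes a binding partner of PA28-gamma, gave -0.28, -0.42, -0.25, -0.34 and -0.16 in mice 1 to 5, below 0 in all. Its mean was -0.29 ± 0.10 with a limma adjusted p of 0.00545. Psmc3ip, a meiotic recombination gene, gave -0.03, -0.06, 0.09 and 0.18 in mice 2 to 5 and did not pass (mean 0.05 ± 0.11).

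The position of the probes was examined because ratios of probes with different gene names were related at certain distances in probe ID. Across probes, which are not independent replicates, Pearson's r was 0.16 at a distance of 6 IDs (9138 pairs), 0.11 at 18 and 0.11 at 24, while it lay between -0.03 and 0.05 at the other 97 distances up to 100. Among the proteasome genes, Psmb10 and Psmb6 had a neighbour beyond 1 in size at these distances. Psmb9 had none beyond 0.12, and the strongest neighbour of Psmb8, Oxct1, had -0.38. The strongest neighbour of Psma1, Pon1, had 0.77, and that of Psmd8, Tfec, had -0.97.

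**Figure D3:**
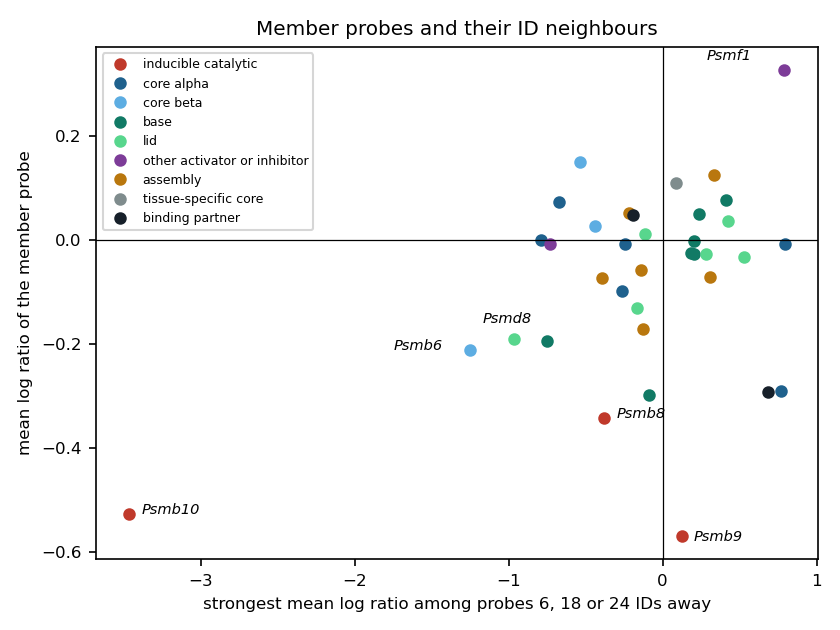
Mean log ratio of each member probe tested (y axis) against the strongest mean log ratio among the probes 6, 18 or 24 IDs away (x axis), both taken as log2 and coloured by class. Psmb10 stands at the far left beside Cxcl9 at -3.47, whereas Psmb9, as negative itself, has a strongest neighbour of 0.12.

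The genes around the proteasome were taken as lists of the pathway. All counts of these lists stand against 15.0% of all genes past the threshold below 0 and 12.3% above. Of 14 partners outside the family that were tested, 1 passed below 0 and none above, with a median of -0.09: Rad23b, a shuttle that brings ubiquitin-tagged proteins to the proteasome (-0.41 ± 0.17, limma adjusted p = 0.00476). Nfe2l1, the transcription factor that drives proteasome genes when the protease is inhibited, gave 0.02 ± 0.14 and did not pass. Of 27 genes of ubiquitin and its activating and conjugating enzymes, 1 passed on each side, with a median of 0.02. They were Ube2c, a conjugating enzyme of mitosis (-1.08 ± 0.25, limma adjusted p = 0.00055), and Ube2e3 (0.13 ± 0.03, limma adjusted p = 0.0461).

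Of 19 genes of class I antigen processing tested, 11 passed below 0 and none above, against 15.0% and 12.3% of all genes, with a median of -0.22. The 3 of smallest p were the class I heavy chain genes H2-Q7 (-0.70 ± 0.17) and H2-T23 (-0.48 ± 0.12) and Pdia3, a disulfide isomerase of the loading complex (-0.76 ± 0.23), with limma adjusted p-values of 0.000802 to 0.00135. The heavy chain genes are related in sequence, so their probes may pick up each other's transcripts, which was not tested. Some genes of this list were named for their role after their values were seen. The peptide transporter genes lie beside Psmb8 and Psmb9 in the MHC region: Tap2 had -0.27 ± 0.09 and passed (limma adjusted p = 0.00639), while Tap1 had -0.17 ± 0.14 and did not (limma adjusted p = 0.0728). Tapbp, the tapasin gene, had -0.42 ± 0.18 and passed (limma adjusted p = 0.0049). B2m, the light chain gene, had -0.19 ± 0.23 and did not pass.

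Of 23 interferon-gamma signalling and target genes tested, 12 passed below 0 and none above, against the same 15.0% and 12.3% of all genes, with a median of -0.34. Cxcl9 (-3.47 ± 0.88) and the GTPase genes Irgm2 (-1.03 ± 0.24) and Irgm1 (-1.18 ± 0.38) had the smallest p, with limma adjusted p-values of 0.00055 to 0.0011. The cytokine gene itself, Ifng, gave -0.03 ± 0.09, and Irf1, a transcription factor known to drive Psmb9, gave -0.15 ± 0.19; neither passed. At an unadjusted p under 0.05, which 21.7% of all genes passed below 0 and 18.3% above, limma called 14 of this list below 0 and 0 above, 12 and 1 of class I processing, 3 and 1 of the partners, and 7 and 4 of the ubiquitin list. The genes called in the interferon-gamma and class I lists lay on the side of the inducible subunits, and no test of their likeness was made.

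**Figure D4:**
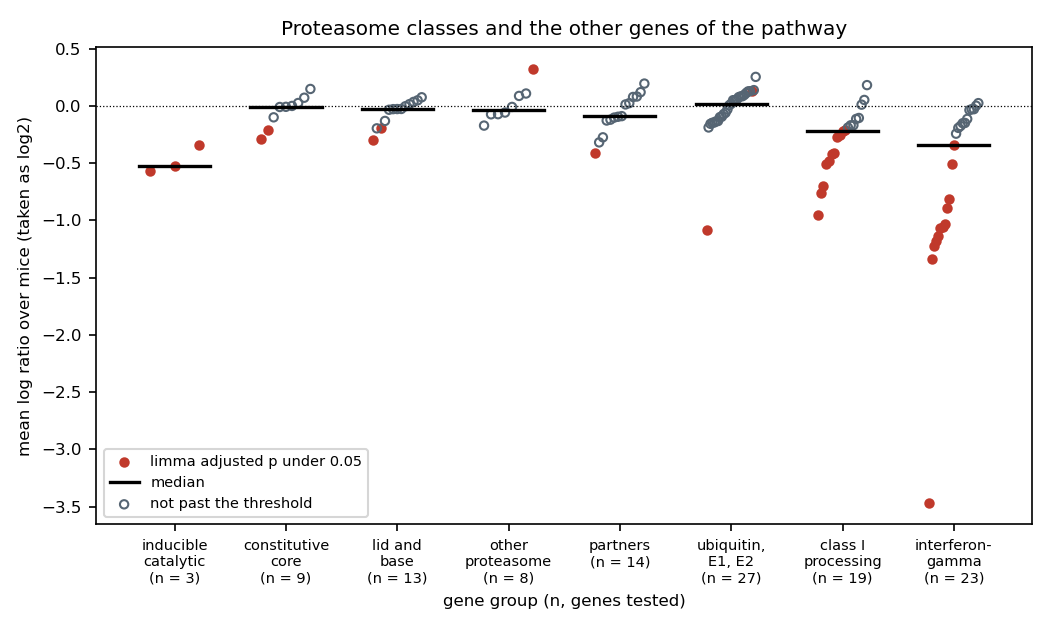
Mean log ratio over mice (y axis, taken as log2) of each gene tested in the proteasome classes and in the 4 pathway lists (x axis). Filled points passed limma's adjusted p of 0.05, open points did not, and bars are medians. The bar stands at -0.53 for the inducible catalytic subunits, near 0 for the constitutive core and the lid and base, at -0.22 for class I processing and at -0.34 for interferon-gamma genes.

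Markers of cell types were also read from the same arrays. The counts of these markers also stand against 15.0% of all genes past the threshold below 0 and 12.3% above. Of 9 haematopoietic markers tested, 8 passed below 0 and none above, and the list's median ranged from -0.83 to -0.22 over the mice. Macrophage and monocyte markers gave 8 of 8 below 0 (medians of -1.41 to -0.38), B cell markers 5 of 6 and cycling cell markers 4 of 6. T and natural killer cell markers gave 1 of 4 below 0, endothelial markers 4 of 5 above 0, and lung epithelial markers 3 of 8 below and 4 above. Ratios give no level, so which markers were near 0 in a lung could not be read. Their part in the values of Psmb8, Psmb9 and Psmb10 was not tested.

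Across the settings tried, Psmb9 and Psmf1 kept their calls throughout, as did the binding partner gene Psme3ip1. Psmb8, Psmb10, Psmb6, Psma1, Psmc6 and Psmd8 each lost theirs without at least 1 mouse. The count of proteasome genes past the threshold below 0 was 7 of 33 without mouse 1, 3 of 34 without mouse 2, 2 of 33 without mouse 3, 3 of 34 without mouse 4 and 2 of 35 without mouse 5. Over the same fits the share of all genes below 0 was 14.3%, 11.2%, 9.18%, 11.4% and 9.26%. With all 5 mice the values were 7 of 33 and 15.0%. Without mouse 2, 3, 4 or 5 calls fell at large as well, but by less than among the proteasome genes. These fits took genes with values on at least 3 of the arrays kept, so Psmb10 rests on 3 values without mouse 2, 3, 4 or 5.

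**Figure D5:**
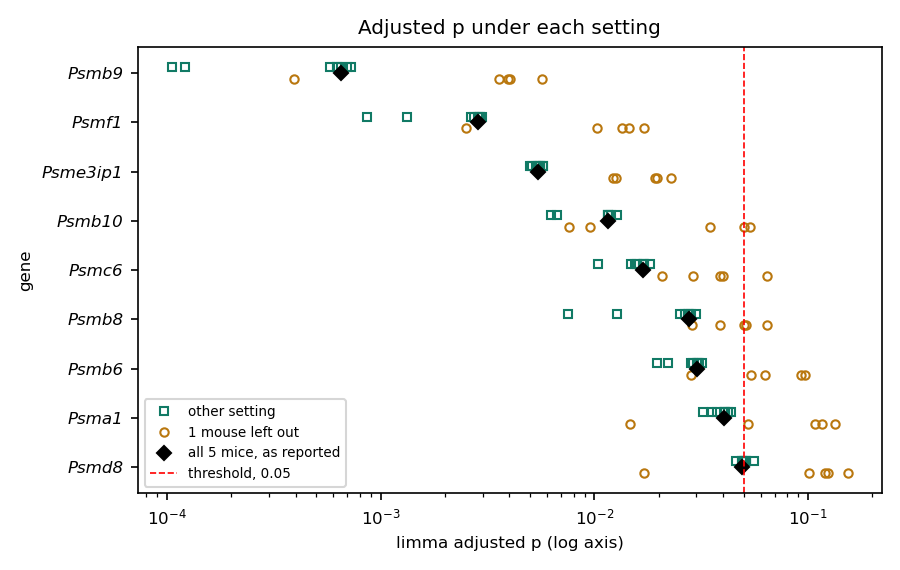
Limma adjusted p (x axis, log scale) of the 8 proteasome genes past the threshold and of Psme3ip1. The diamond is the value over all 5 mice, circles are fits without 1 mouse, squares are the other settings, and the dashed line is 0.05. Psmb9 and Psmf1 stay left of the line in every fit, and Psmd8 sits on it.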

How the data were processed

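The deposited table holds the authors' log2 ratios as read here: 1 signed value per probe and array, blank where none was given. Its log base, numerator, dyes, background correction and normalization are not stated in the labels or the table; base 10 can be set aside, since the largest size, 5.168, exceeds the log10 range of a 16-bit scanner, 4.82. Spot brightness was not available, so dim spots could not be filtered. Genes were named from GEO's platform annotation, 1 symbol for 14722 probes. Of these, 14445 had an identifier in the RefSeq table of GRCm38.p6, which changed 0 symbols.

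Arrays were centred on their medians, probes naming only a gene were averaged, and genes with values on at least 4 of 5 arrays were fitted with limma 3.58.1 in R 4.3.3 (intercept, eBayes, Benjamini-Hochberg over all genes). The fit was tested on simulated data. RefSeq windows matched 38 of 46 genes; 8 had none. The number of arrays limits the precision.

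The members and lists were chosen with earlier results of these data known. Every tested member is named; values by mouse are given for the inducible subunits, their counterparts, and the largest and smallest mean of each class. From each pathway list the 3 genes of smallest p past the threshold are named. Some list genes were named for their role after their values were seen.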

Additional observations from a re-analysis of the deposited data

Results flagged for a closer look

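In 35 tested genes, 3 had a mouse apart from the rest of its group by Dixon's test at the 95% level; chance gives about 1 in 20. Psmb8 in mouse 5 was -0.79, against -0.31 to -0.16 in the other 4. Psmd9 in mouse 4 was -0.70, against 0.05 to 0.17, and its ID neighbour Dhx30 was also below 0 in that mouse alone. Psmg2 in mouse 2 was -0.18, against -0.05 to -0.02 in 3 mice. These lie in 3 different mice.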

How the results depend on the processing

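The settings tried were no centring, quantile and scale normalization, values on at least 3 or on all 5 arrays, the median or the first probe of a gene, robust eBayes, and leaving out each mouse. Leaving out Psmb10 and Psmb6 together was added after seeing the data. Leaving out a mouse gave between 2 and 7 proteasome genes past the threshold below 0, and 1 above 0 each time; the other 8 planned settings gave 6 or 7 below and 1 above. Psmb9 minus Psmb6 stayed between -0.39 and -0.32, Psmb10 minus Psmb7 between -0.57 and -0.48, and the inducible minus core median between -0.47 and -0.30. Fits without a mouse took genes with values on at least 3 of the arrays kept. Psme1 therefore joined the inducible median without mouse 2 (-0.39), without mouse 5 (-0.30) and with values on at least 3 arrays (-0.35). In the settings without Psme1 that difference lay between -0.47 and -0.42. With quantile normalization Psmd2 passed (limma adjusted p = 0.0489) and Psmd8 did not. No paired analysis was possible because there is 1 group of mice, so replicate numbers pair no samples across groups; the differences between subunits above are within arrays. Psmb10 could not be fitted with values on all 5 arrays. Psmb8 minus Psmb5 could not be computed. Signal over background was not available, so whether blank members were dim was not tested.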
